A study of Mus musculus with 8 samples.

Results

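The 35 genes described here encode ATP-dependent chromatin remodellers and the subunits that work with them: 15 genes of SWI/SNF complexes, 9 CHD genes, the 3 MTA genes of the NuRD complex, 4 genes of ISWI complexes, 3 of the INO80 and SWR1 kind, and Hells. They were taken as a list of names that was chosen with earlier results of these data known. All 35 were found among the 21883 protein-coding genes of the RefSeq table of GRCm38.p6. For each gene, the bases of the RefSeq span that lay under H3K79me2 peaks were counted in cultured mouse spermatogonial stem cells grown with a vehicle or with EPZ5676, a compound that inhibits DOT1L, the enzyme that methylates H3K79.

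Chromatin remodellers use the energy of ATP to slide, evict or exchange nucleosomes, and so open or close DNA to other proteins. SWI/SNF complexes mostly move and eject nucleosomes, ISWI complexes space them evenly, CHD proteins act in transcription and in the NuRD deacetylase complex, and INO80-type complexes exchange histone variants. H3K79me2 is laid down by DOT1L along the first part of transcribed genes, so peaks over a gene body are commonly read as a mark of its transcription. Several remodellers, among them Smarca4, Chd4, Ino80 and Hells, are known to be needed for the mouse male germ line.

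Both culture conditions used testis cells of B6.129S7-Gt(ROSA)26Sor/J mice aged 7 days, which carry a LacZ reporter in every tissue. The cells had been kept for 2 months on feeders of the mouse fibroblast line SNL 76/7 in serum-free medium with GDNF (10 ng/mL) and FGF2 (0.5 ng/mL). They then received 2 µM EPZ5676, or vehicle alone in the control, for 7 days, and were fixed in 1% formaldehyde. The vehicle was DMSO by the protocols, while the control samples' short descriptions read as ethanol, and no step that removes the feeder cells is described. The series holds 8 samples, with 2 H3K79me2 samples and 2 inputs per condition, but the values below come from 1 peak list per condition (47774 control peaks and 9182 EPZ5676 peaks). No value therefore has a replicate error, no difference between the conditions was tested, and the read depth is unknown. All 15 spermatogonial marker genes had a control peak, among them Zbtb16, Ret and Ddx4, against 11 of 16 fibroblast feeder markers and 2 of 12 testis somatic markers. By comparison, 52.7% of all protein-coding genes had one. The marker lists were likewise chosen with earlier results of these data known. Of the feeder markers, Col1a2, Col3a1, Vim, Postn and Lox had none, while the collagen genes Col1a1 (2433 bp) and Col5a1 (54548 bp) and Twist2 (12557 bp) were among those covered. Signal from feeder cells and from germ cells cannot be told apart within a list.

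Every remodeller gene was marked in the control. All 35 had a control peak over at least 1 bp of the span, where 52.7% of all protein-coding genes did. The covered length ran from 322 bp at Brd9 through a median of 16265 bp to 182764 bp at Arid1b. As a share of the span it ran from 1.39% at Brd9 to 74.3% at Arid1a, with a median of 31.6%, beside a median of 2.15% over all protein-coding genes and 32.6% over the 11525 genes with a control peak. The remodeller genes thus stood near the middle of the marked genes in this share. Their 211 control peaks had a median width of 1042 bp (1102 bp over the whole list). At least 1 peak wider than 5 kb was held by 27 of the genes, and 1 wider than 20 kb by 10. The share of all genes with such peaks was not counted, so these counts are not read as particular to remodeller genes. Their spans are also longer, with a median of 59892 bp beside 17170 bp over all protein-coding genes.

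After EPZ5676 little of this was left. An EPZ5676 peak lay on 12 of the 35 genes, where 12.3% of all protein-coding genes and 19.3% of the control-marked ones had one. The remaining coverage came to 22149 bp over all 35 genes, against 938875 bp in the control, and 2.23% of the control-covered bases were still under a peak (1.76% over all protein-coding genes). No remodeller gene had more covered bases after EPZ5676 than in the control. Of the 35 genes, 3 had an EPZ5676 peak of at least 1000 bp, where 2.41% of all protein-coding genes did. With both lists held to a deposited −log10 q of at least 2, the number of genes was 2 (1.91% of all genes). The share of bases was then 0.0871% (0.162% over all genes).

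**Figure D1:**
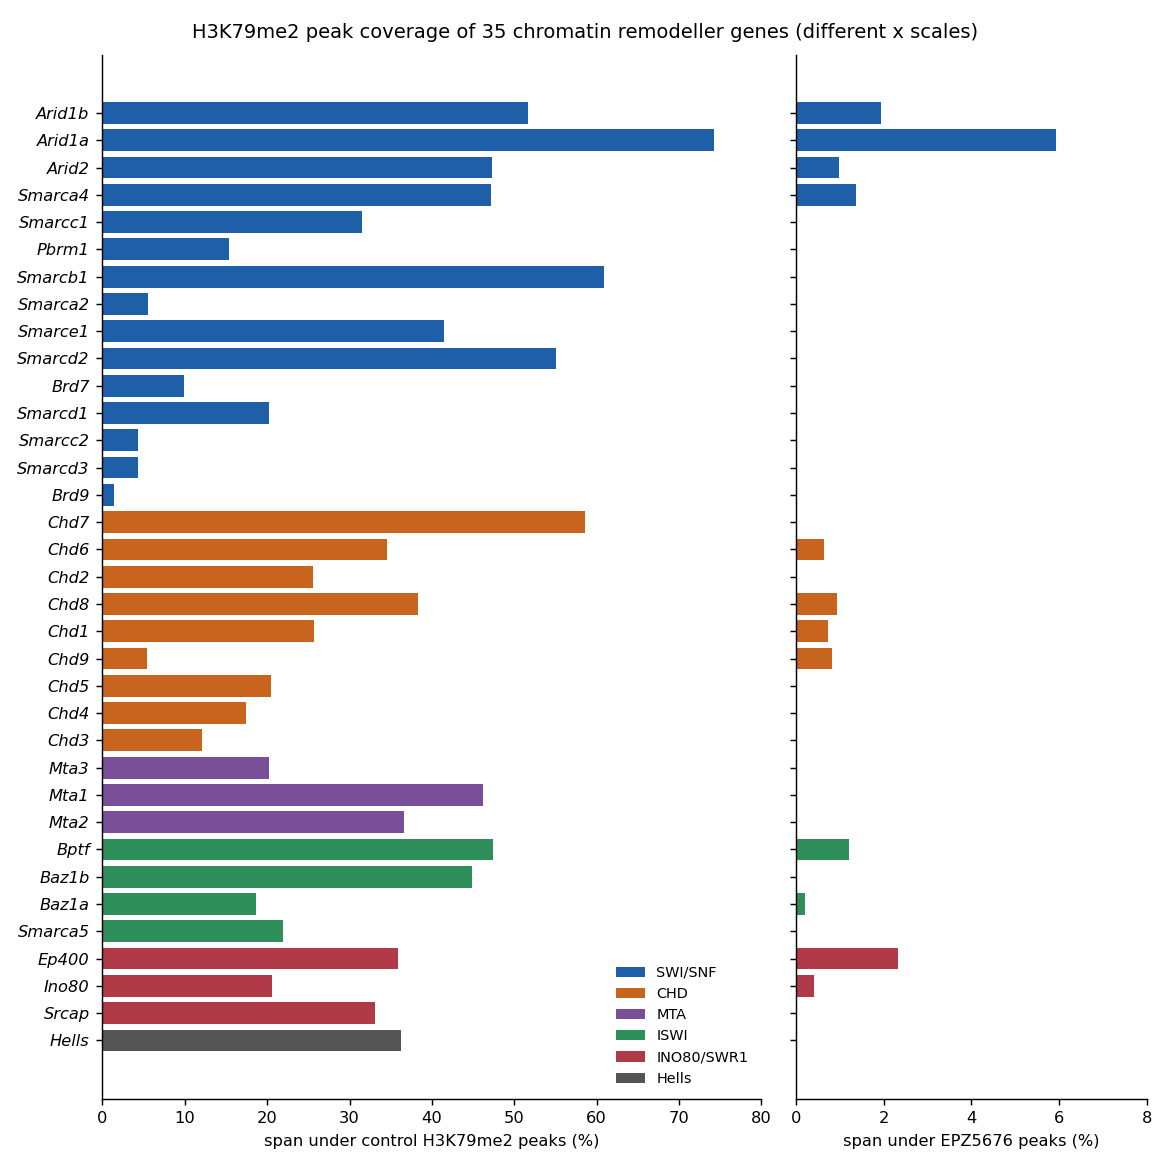
Share of each RefSeq span (%) under control peaks (left) and under EPZ5676 peaks (right, on a 10-fold finer scale), 1 bar per gene, coloured by family and ordered within a family by covered length. All 35 genes have a bar on the left, the longest at Arid1a (74.3%), and 12 have one on the right, again longest at Arid1a (5.92%).

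SWI/SNF genes spanned the whole range of control coverage, and the widest coverage was found at their ARID subunits. Arid1b, a subunit of the canonical BAF complex (chromosome 17, 4994297 to 5347656), had 44 control peaks over 182764 bp, or 51.7% of its span, and only 4.85% of all genes over 200 kb had a higher share. Arid1a, its close relative and the alternative subunit at the same place in the complex (chromosome 4, 133679008 to 133756769), had 5 control peaks over 57750 bp, or 74.3%. A single peak of 54788 bp made up most of that coverage. Arid2, which takes the corresponding place in the PBAF complex, was covered over 55815 bp (47.3%). These 3 genes and Smarca4 were the SWI/SNF genes that also had EPZ5676 peaks, 4 of 15.

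The core of the complex was covered unevenly. Smarca4, the gene of the ATPase BRG1 (chromosome 9, 21616106 to 21704230), had 10 control peaks over 41592 bp, or 47.2%, with a highest fold enrichment of 7.50, the highest of all 35 genes. Fold enrichment here is the authors' value for a peak over its background. Smarca2, the gene of the alternative ATPase BRM (chromosome 19, 26605073 to 26778321), had 3 control peaks over 9646 bp, or 5.57%, with a highest fold of 2.41. The share at Smarca4 was 8.48 times that at Smarca2, over spans of 88125 and 173249 bp. Smarcb1, which anchors the complex to the nucleosome, was covered over 15132 bp (60.9%), and Smarce1, a subunit with an HMG domain, over 9117 bp (41.5%).

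The paired scaffold genes differed in the same manner. Smarcc1, the BAF155 gene, had 10 control peaks over 34125 bp (31.6%), the longest coverage among SWI/SNF genes without an EPZ5676 peak, while Smarcc2, the BAF170 gene, had 1 peak of 1370 bp (4.36%). Of the BAF60 genes, Smarcd2 was covered over 5410 bp (55.0%), Smarcd1 over 2371 bp (20.2%) and Smarcd3 over 1361 bp (4.28%). Pbrm1, the polybromo subunit of PBAF, had 15757 bp (15.4%), but 6217 bp of it lay where its span overlaps Smim4 and cannot be assigned to Pbrm1 alone. Brd7, a bromodomain subunit of PBAF, had 3202 bp (9.90%). Brd9, the bromodomain subunit of the non-canonical BAF complex, had a single peak of 322 bp with a −log10 q of 1.23, the weakest mark of the 35, and it was the 1 gene lost from the control count when a covered length of 500 bp, a peak width of 1000 bp or a stricter threshold was asked for.

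The sequences before the starts of the SWI/SNF ATPase pair and the scaffold pair, both unequally covered, and of Arid1a, which had the highest covered share, show what kind of promoter these genes have. They are the bases of the RefSeq promoter table (GRCm38.p6) that lie before the outer end of each gene's span, printed 5′ to 3′ in the direction of transcription. Capitals mark GC boxes (GGGCGG or its reverse complement CCGCCC), the motif bound by SP-family factors, which were searched on both strands.
Arid1a, minus strand, chr4:133756770-133757019: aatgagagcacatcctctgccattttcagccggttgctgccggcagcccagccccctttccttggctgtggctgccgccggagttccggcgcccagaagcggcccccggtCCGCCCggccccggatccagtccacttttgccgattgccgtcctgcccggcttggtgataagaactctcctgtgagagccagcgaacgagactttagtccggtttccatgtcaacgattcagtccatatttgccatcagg
Smarca4, plus strand, chr9:21615919-21616105: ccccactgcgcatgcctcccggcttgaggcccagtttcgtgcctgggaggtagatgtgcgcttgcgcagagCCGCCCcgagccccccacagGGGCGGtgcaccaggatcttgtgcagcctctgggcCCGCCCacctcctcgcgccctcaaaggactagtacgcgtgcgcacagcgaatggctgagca
Smarca2, plus strand, chr19:26604910-26605072: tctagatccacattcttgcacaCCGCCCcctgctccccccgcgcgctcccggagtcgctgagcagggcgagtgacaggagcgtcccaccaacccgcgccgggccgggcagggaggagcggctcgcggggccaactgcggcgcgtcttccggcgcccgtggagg
Smarcc1, plus strand, chr9:110131774-110132023: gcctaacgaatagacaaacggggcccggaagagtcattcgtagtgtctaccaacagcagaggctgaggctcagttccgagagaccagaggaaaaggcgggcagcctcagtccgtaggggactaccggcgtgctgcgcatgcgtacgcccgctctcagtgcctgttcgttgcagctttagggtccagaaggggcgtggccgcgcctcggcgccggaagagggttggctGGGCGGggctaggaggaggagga
Smarcc2, plus strand, chr10:128458986-128459181: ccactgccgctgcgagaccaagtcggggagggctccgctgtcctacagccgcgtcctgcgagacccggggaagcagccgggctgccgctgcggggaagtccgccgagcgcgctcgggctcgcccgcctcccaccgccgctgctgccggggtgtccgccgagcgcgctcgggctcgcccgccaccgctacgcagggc

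All 5 stretches are rich in G and C, from 61.2% at Arid1a to 78.1% at Smarcc2, and hold between 15 (Smarca4) and 30 (Smarcc2) CG dinucleotides. The less covered gene of each pair was the richer in CG, 21 at Smarca2 against 15 at Smarca4 and 30 at Smarcc2 against 21 at Smarcc1, over stretches of 163 to 250 bases. None of the 5 stretches touched a control or EPZ5676 peak. Over the full 250 bases before the start, which the table gives for 27 of the 35 genes, the median was 25 CG dinucleotides, beside 17 for all 9334 control-marked genes in the table and 3 for the 8157 without a control peak. A GC box was present in 25 of the 27 genes (61.6% of the control-marked genes), and a TATA box (TATAAA, either strand) in 1, at Smarcd2 (5.62%). A match describes these letters and does not show binding.

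CHD genes were covered from 3169 to 104379 bp, and the gene with the longest coverage kept no EPZ5676 peak. Chd7, the gene mutated in CHARGE syndrome (chromosome 4, 8690402 to 8868449), was covered over 104379 bp in 4 control peaks, or 58.6% of its span, of which 1 peak was 91437 bp wide, the widest in any of the 35 genes. It had no EPZ5676 peak. In the whole genome 137 genes had at least this much control coverage, and 41 of them had no EPZ5676 peak. Chd6, of the same subfamily, had 56031 bp in the control, 54658 bp of it in 1 peak, and 2 EPZ5676 peaks over 1041 bp. Chd8, a repressor of beta-catenin target genes, had 22932 bp (38.3%) in the control and 1 EPZ5676 peak of 564 bp.

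Chd9, the last of that subfamily (chromosome 8, 90828302 to 91054516), looked unlike the others. Its 21 control peaks were all narrow, the widest 1347 bp, and covered 12126 bp, or 5.36% of the span, with a highest fold of 2.46. It had 3 EPZ5676 peaks over 1870 bp, of which 1221 bp lay outside the control peaks. It was the 1 remodeller gene with EPZ5676 bases outside its control peaks.

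Chd1 and Chd2, which act at transcribed genes, were covered over nearly the same share of their spans, 25.7% (17384 bp) and 25.6% (29487 bp), but only Chd1 had an EPZ5676 peak, of 504 bp. The NuRD ATPase genes had short coverage without an EPZ5676 peak. Chd4, the main ATPase of NuRD, had 6019 bp (17.4%) with a highest fold of 5.86, Chd5, known from neurons and from the testis, had 10568 bp (20.5%) with a highest fold of 2.73, and Chd3 had 3169 bp (12.1%), the shortest of the family. The MTA genes, whose products hold the deacetylases in NuRD, were covered over 23712 bp at Mta3 (20.2%), 18007 bp at Mta1 (46.2%) and 3796 bp at Mta2 (36.6%). None of the 3 had an EPZ5676 peak.

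Among ISWI genes, the subunits were covered over more bases than the ATPase, though not always over a larger share of the span. Bptf, the largest subunit of the NURF complex (chromosome 11, 107033081 to 107132147), had 7 control peaks over 47011 bp, or 47.5% of the span, and 3 EPZ5676 peaks over 1199 bp. Baz1b, the gene of the WSTF protein, had 26404 bp (44.9%) and no EPZ5676 peak, and Baz1a, the gene of ACF1, had 22627 bp (18.6%) and 1 EPZ5676 peak of 252 bp. Smarca5, the gene of the ATPase SNF2H, had the shortest coverage of the 4, 8671 bp (21.9%), and no EPZ5676 peak.

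The INO80-type genes were all well covered. Ep400, the ATPase of the TIP60 complex that places H2A.Z (chromosome 5, 110664373 to 110770927), had 2 control peaks over 38282 bp, or 35.9% of the span, with a highest fold of 7.02. Its 3 EPZ5676 peaks came to 2474 bp, or 6.46% of the control-covered bases. Ino80 had 21719 bp (20.6%) and 1 EPZ5676 peak of 429 bp, and Srcap, another H2A.Z-depositing ATPase, had 16265 bp (33.0%), the shortest of the 3, and none. Hells, whose product LSH is needed for DNA methylation of repeats, was covered over 14552 bp (36.2%) in 9 control peaks and kept no EPZ5676 peak.

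Side by side, the family medians lay closer together than single genes did. Medians vary less than single genes by construction, so this does not show that the families are alike. The median share of the span covered in the control was 31.6% for SWI/SNF, 25.6% for CHD, 36.6% for MTA, 33.4% for ISWI and 33.0% for INO80-type genes. Single SWI/SNF genes ran from 1.39 to 74.3%. EPZ5676 peaks lay on 4 of 15 SWI/SNF, 4 of 9 CHD, 0 of 3 MTA, 2 of 4 ISWI and 2 of 3 INO80-type genes. They lay on 12.3% of all protein-coding genes and 19.3% of the control-marked ones, and on more of the longer genes (13.9% at 20 to 50 kb, 35.4% at 100 to 200 kb). Gene length differed between the families too, with medians of 32359 bp for SWI/SNF, 67646 bp for CHD, 38959 bp for MTA, 78938 bp for ISWI and 105644 bp for INO80-type genes. The families hold few genes of 1 pair of lists, and no test was made between them.

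Set beside all genes of similar length, marked or not, the remodeller genes had a higher median control coverage in every length class. Of genes up to 20 kb, 41.2% had a control peak, as did 64.5% at 20 to 50 kb, 70.3% at 50 to 100 kb, 72% at 100 to 200 kb and 56.7% over 200 kb, while all 3, 12, 7, 11 and 2 remodeller genes of these classes did. The median covered share of the 12 remodeller genes of 20 to 50 kb was 19.7%, beside 11.9% for all genes of that class. It was 44.9% beside 13.4% at 50 to 100 kb, 25.6% beside 10.2% at 100 to 200 kb, 36.6% beside 0 up to 20 kb and 28.5% beside 0.351% over 200 kb. Not every gene stood above its class, since Brd9, Smarcc2, Smarcd3 and Brd7 were below the median at 20 to 50 kb and Smarca2 was below it at 100 to 200 kb.

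**Figure D2:**
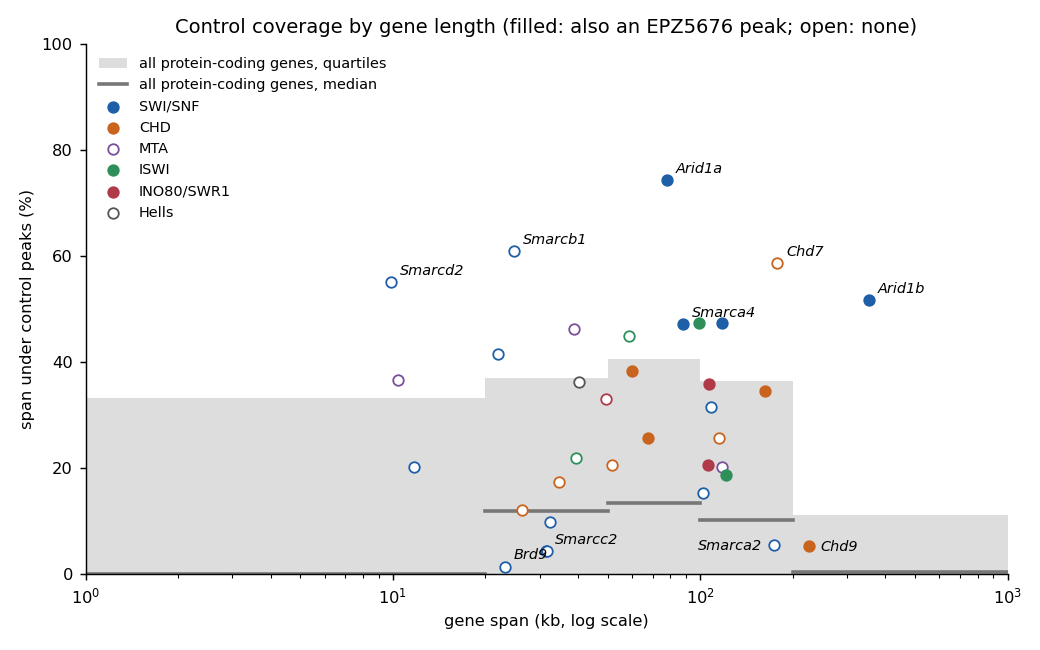
Share of the span under control peaks (%) against gene span (kb, log scale), 1 point per remodeller gene, filled where it also had an EPZ5676 peak. Grey bands and lines give the quartiles and median of all protein-coding genes in 5 length classes. Arid1a, Smarcb1, Smarcd2, Chd7 and Arid1b lie, among others, above the band, no gene under 50 kb is filled, and Smarca2 lies below its class median of 10.2%.

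EPZ5676 peaks followed gene length and control coverage. None of the 3 remodeller genes up to 20 kb and none of the 12 of 20 to 50 kb had one, where 2.47% and 13.9% of all genes did. At 50 to 100 kb it was 5 of 7 (28.9% of all genes), at 100 to 200 kb 5 of 11 (35.4%) and over 200 kb 2 of 2 (46.6%). By control coverage, an EPZ5676 peak lay on 0 of 7 remodeller genes with under 5 kb covered (4.68% of all such genes), 2 of 13 with 5 to 20 kb (18.6%), 6 of 10 with 20 to 50 kb (49.6%) and 4 of 5 with 50 kb or more (63.6%). Longer coverage gives more room for a peak, and at a given coverage the remodeller genes were near the share of all genes, so these counts are not read as particular to them. The 12 genes with an EPZ5676 peak had a median control coverage of 39937 bp and a median highest fold of 5.20, the 23 without one 9646 bp and 4.01.

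Control coverage began shortly after the start of the gene and thinned out along it. Gene starts came from the RefSeq promoter table, which held 27 of the 35 genes. Arid2, Smarce1, Chd1, Chd2, Chd3, Chd7, Mta3 and Baz1a have no entry. The start itself lay under a control peak in only 2 of the 27, Srcap and Smarcd2 (11.7% of control-marked genes). A control peak lay within 1 kb on either side in 23 (81.6% of control-marked genes with a start). In 21 of the other 25 genes the first covered base lay within 1000 bp after the start, as close as 93 bp at Hells and 164 bp at Smarcc1, with a median over the 25 of 584 bp. The 4 farther ones were Smarcc2 (1012 bp), Arid1b (1964 bp), Chd9 (1971 bp) and Smarca2 (4570 bp). The table's start of Smarcd2 lies inside its span, 4836 bp after the beginning of the peak that covers it, and that of Smarcd3 likewise lies inside its span.

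In most genes the marked stretch lay mainly in the 5′ part, with a few further peaks downstream. In the 27 genes a median of 91.1% of the control-covered bases lay in the 50% of the span nearest the 5′ end (93.0% in all control-marked genes with a start). The share was over 90% in 15 of the 27, and in 4961 of the 9334 control-marked genes with a start. All of the coverage lay there in Chd6, which was marked up to 65396 bp from its start. In Smarcb1 the share was 62.3%, in Arid1a 63.3%, in Hells 65.0% and in Srcap 59.4%, so that the mark also reached the 3′ part. Pbrm1, with 34.3%, had more of its coverage in the 3′ part, which includes the stretch it shares with Smim4. Smarcd3 had 0% in the 5′ part, its single peak lying just after the table's start inside the span.

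**Figure D3:**
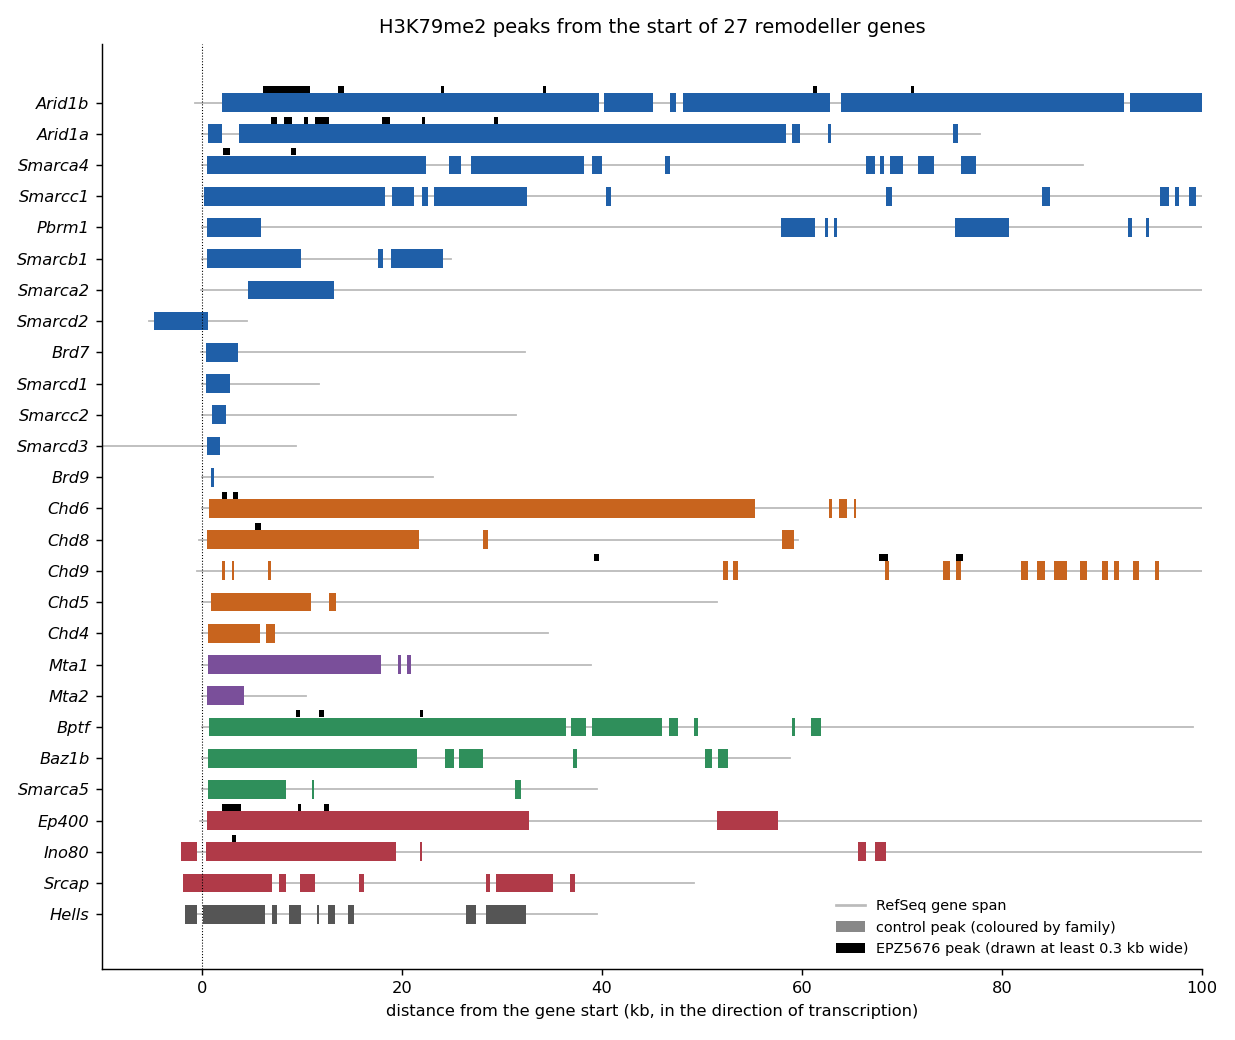
Control peaks (coloured by family) and EPZ5676 peaks (black, above the line) that touch the spans of 27 remodeller genes, in kb from the gene start, with the span as a grey line, out to 100 kb; further control peaks of Arid1b, Chd9 and Smarca2 and 1 EPZ5676 peak of Arid1b lie beyond that. Most control coverage starts just after 0 and black marks sit in the first 40 kb in all genes but Arid1b and Chd9.

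Over the 24 genes longer than 20 kb, control peaks covered 62.8% of the bases from 0 to 2 kb after the start, 76.8% from 2 to 5 kb, 68.6% from 5 to 10 kb, 50.7% from 10 to 20 kb, 32.3% from 20 to 50 kb and 19.6% from 50 to 100 kb. The same windows in the 5361 control-marked genes of that length had 62.6, 73.6, 58.6, 41.3, 27.2 and 17.9%. The remodeller genes followed the general course of the mark and were somewhat higher from 5 to 20 kb. EPZ5676 peaks covered 0.163% of the first 2 kb, 5.49% from 2 to 5 kb, 5.81% from 5 to 10 kb and 2.15% from 10 to 20 kb, beside 1.25, 3.65, 1.90 and 0.799% in all such genes. These EPZ5676 values rest on few peaks, the widest at Arid1b (4794 bp) and Ep400 (1869 bp). The peak of Ep400 begins 1965 bp after the start and that of Arid1b 6029 bp after it.

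**Figure D4:**
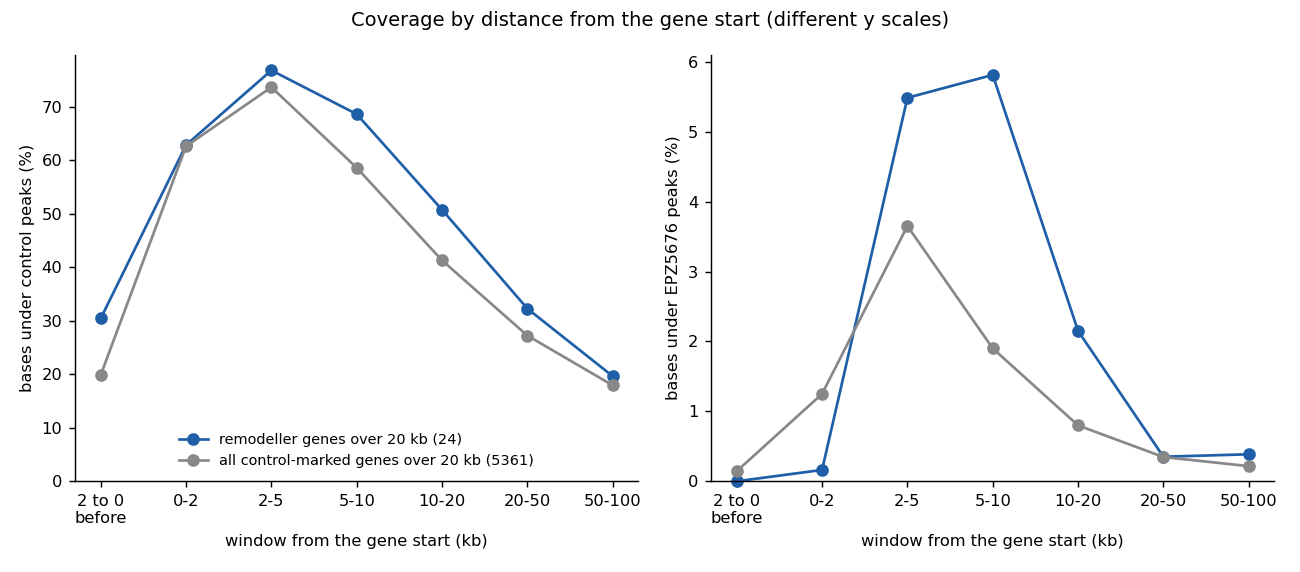
Share of bases (%) under control peaks (left) and EPZ5676 peaks (right, on its own scale) in windows from 2 kb before to 100 kb after the gene start, for 24 remodeller genes over 20 kb (blue) and all 5361 control-marked genes of that length (grey). Both control lines peak at 2 to 5 kb (76.8 and 73.6%), and the blue EPZ5676 line is highest at 5 to 10 kb (5.81%).

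Before the start, coverage differed with the neighbouring gene. This was read in the 25 genes whose table start lies under 2 kb inside the span, a limit set after the values were seen that leaves out Smarcd2 and Smarcd3. In 5 of the 25 another protein-coding gene ended within 2 kb before the span, and all 5 had control coverage in the 2 kb before the start, with a median of 1431 bp. Of the other 20 genes, 10 had any, and the median was 66.5 bp. Among the 5 neighbours, Trip13, 6 bp from Brd9, and Gnl3, 7 bp from Pbrm1, are divergent. The 2 kb before Brd9 were covered over 1678 bp, more than the 322 bp in the whole of Brd9. Without such a neighbour, Bptf (1678 bp), Ino80 (1468 bp), Mta1 (1242 bp), Ep400 (1165 bp), Hells (1140 bp) and Srcap (1943 bp) were also covered before the start.

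The 33 EPZ5676 peaks in these genes were mostly short, low in −log10 q and almost all inside control peaks. Their median width was 479 bp (402 bp over the whole list), with a range of 159 to 4794 bp. Their fold enrichment ran from 2.60 to 3.05 and their −log10 q from 1.19 to 2.25. By fold they were not weaker than every control peak, since control folds in these genes ran from 1.94 (Chd9) to 7.50 (Smarca4). In Chd9 and Chd1 the highest EPZ5676 fold (2.83 and 2.93) was above the highest control fold (2.46 and 2.88). In the other genes with an EPZ5676 peak it was below. Of the 33, 30 lay wholly inside a control peak, 2 partly and 1 outside, the last 3 all in Chd9. By bases, 94.5% of the EPZ5676 coverage lay under control peaks, and 100% without Chd9, beside 83.7% over all control-marked genes. The 29 peaks in genes with a known start all lay after it, the nearest 1957 bp and the farthest 128536 bp away, with a median of 11682 bp, and 12 began within 10 kb.

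The longest residual coverage was again in the ARID genes. Arid1b kept 7 peaks over 6857 bp, 3.75% of its control-covered bases, and 1 of them, 4794 bp wide, was the widest EPZ5676 peak in the 35 genes (chromosome 17, 5001103 to 5005896). Arid1a kept 7 peaks over 4600 bp, or 7.97% of its control-covered bases, the highest share of the 35, and its peak with a −log10 q of 2.25 was the strongest. All 7 lay inside control peaks and in the 5′ part of the gene. Ep400 came next with 2474 bp, of which 1869 bp lay in 1 peak about 2 kb after the start. Smarca4 kept 2 peaks, of 689 and 515 bp, over 1204 bp (2.89% of the control-covered bases).

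The other 8 genes with an EPZ5676 peak had between 252 bp (Baz1a) and 1870 bp (Chd9). Arid2 had 1155 bp in 2 peaks and Bptf 1199 bp in 3. In Chd6 both peaks lay within 4 kb of the start, far from the end of its 54658 bp domain. At Ino80, Chd8 and Chd1 a single short peak remained. All 12 genes but Ino80 and Baz1a had at least 500 bp covered, 10 of 35, where 7.77% of all genes did. Beside these values, 5 of 16 fibroblast feeder markers and 1 of 15 spermatogonial markers had an EPZ5676 peak (12.3% of all protein-coding genes). EPZ5676 bases, inside control peaks or not, came to 11.8% of the control bases for feeder markers and 0.331% for spermatogonial markers. They came to 2.36% for the 35 remodeller genes and 2.27% for all protein-coding genes. Levels of the 16 feeder markers in the control ran from 0 bp (Col1a2, Col3a1, Vim, Postn and Lox) to 54548 bp (Col5a1). The part of feeder cells in the residual peaks was not tested.

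A list of 65 further genes, of other subunits of these complexes and of other SNF2-family remodellers and their partners, was also marked almost throughout. That list too was chosen with earlier results of these data known. Of the 65, 62 had a control peak, with a median covered share of 39.1%, and 12 had an EPZ5676 peak (19.3% of all control-marked genes). The longest control coverage was at Baz2b, an ISWI partner (79681 bp, in a span that overlaps another gene), Gatad2a, a NuRD subunit (76943 bp, 86.1% of the span), and Cecr2, another ISWI partner (63947 bp). The longest EPZ5676 coverage was at Bicra, of non-canonical BAF (5905 bp), and at the NuRD subunits Gatad2a (4398 bp) and Gatad2b (4204 bp). The 3 without a control peak were Dpf3 and Actl6b, which encode BAF subunits of muscle and neurons, and Smarca1, the X-linked ISWI ATPase gene SNF2L. None of these 3 had an EPZ5676 peak, and the EPZ5676 list has no peak on X or Y at all.

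Related genes were often covered very unequally, a comparison made after the values were seen. Actl6a, the form of the actin-like subunit found in stem cells, had 5428 bp (29.5%) where Actl6b had 0, Dpf2 had 7186 bp (43.9%) where Dpf3 had 0, and Smarca5 had 21.9% where Smarca1 had 0. Dpf1 and Ss18l1, which also belong to the neuronal BAF complex, were however covered over 54.5% and 38.7% of their spans. Among the SWI/SNF pairs the share at Smarcc1 was 7.23 times that at Smarcc2, and at Smarcd2 12.9 times that at Smarcd3. A share depends on the span as well as on the covered bases. Smarcd2 had 5410 bp of 9828 bp covered and Smarcd3 1361 bp of 31835 bp, while Smarcc1 has the longer span of its pair (108155 against 31410 bp). In the CHD family Chd6 was 6.45 times Chd9. Gatad2a (86.1%) and Gatad2b (76.9%) were alike, as were Chd1 and Chd2. These are ratios of peak coverage in 1 list, without replicate error, and a level of expression was not measured.

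**Figure D5:**
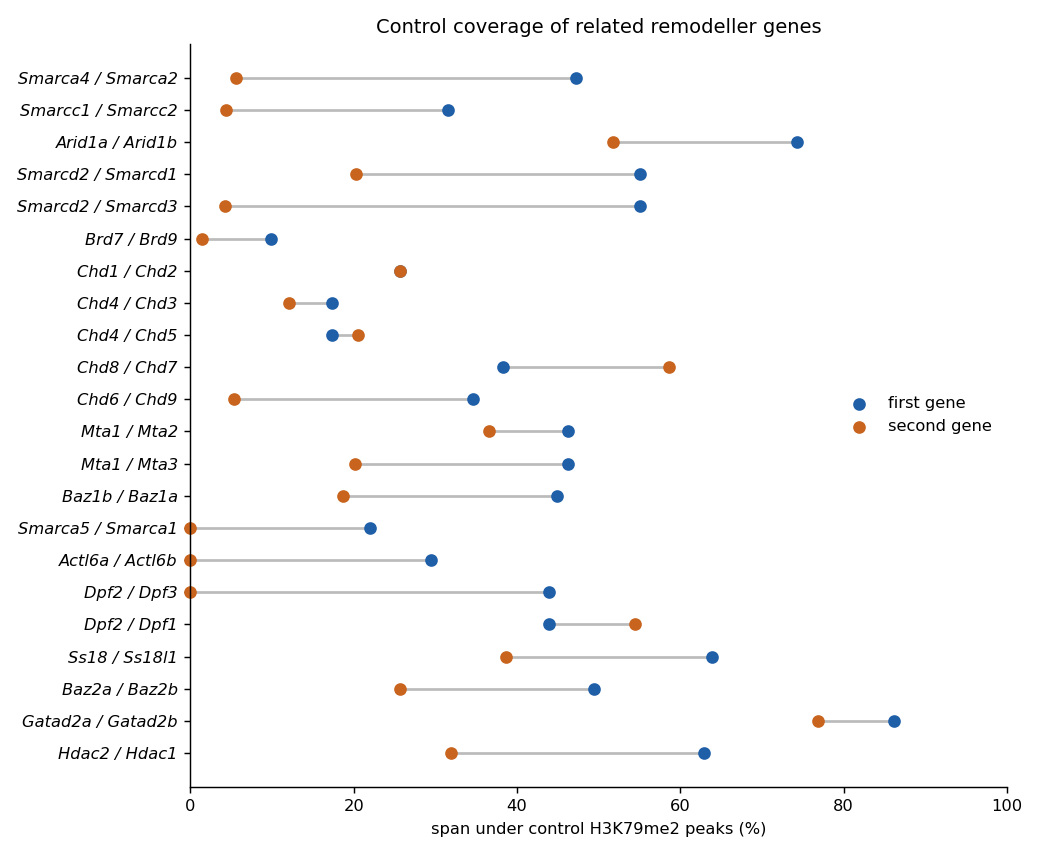
Share of the span under control peaks (%) in 22 pairs of related remodeller genes, the first-named gene in blue and the second in orange, joined by a line. Smarca1, Actl6b and Dpf3 lie at 0, the Smarca4 and Smarca2 points lie 47.2% and 5.57% along the axis, and those of Chd1 and Chd2 overlap.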

How the data were processed

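H3K79me2 ChIP-seq peak lists of control and EPZ5676-treated cultures were used, 1 per condition, each recorded under replicate 1 of its group. No source used here names the aligner, the peak caller or the use made of the inputs, or says whether replicates were pooled. The submitters' processing notes list deepTools, Trimmomatic, bcl2fastq 2.20.0.422 and the build mm10. The lists have 9 columns in the broad peak layout. The deposited score equals 10 times the −log10 q-value, cut to a whole number, except in 4 control peaks. The deposited fold enrichment (a ratio of signal to background), −log10 p-value and −log10 q-value are the authors' values and served only to describe or filter peaks. The lists differ in stringency, with a lowest −log10 p of 2.36 (control) and 4.03 (EPZ5676).

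Bases of each RefSeq GRCm38.p6 gene span under merged peaks were counted (Python 3.11.15, pandas 2.3.3), and a gene counted as marked from 1 bp. GRCm38 and mm10 name the same assembly. The counting was checked against a base-by-base count on simulated data. Gene starts and strands came from the RefSeq promoter table, by gene ID, taking the outermost start. Length classes are of all protein-coding genes on the 19 autosomes, X and Y, and no list was drawn at random. No difference was tested, since there is 1 list per condition. Genes named in full were those with an EPZ5676 peak, and the longest and shortest control coverage of each family; among the 65 other subunits and remodellers, the 3 longest in each list and those without a control peak. The members and lists were chosen with earlier results of these data known. The depth of the samples is unknown, so no interval is given. Every value column was mapped to a sample (0 left over). The alternatives were a covered length of 500 bp, peaks of at least 1000 bp, a −log10 q of at least 2, the control list held to the −log10 p floor of the EPZ5676 list, genes overlapping no other gene, and spans extended by 5000 bp.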

Additional observations from a re-analysis of the deposited data

How the results depend on the processing

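The control count was 32 to 35 remodeller genes under all 6 alternatives (32 of 32 where genes overlapping another were left out), and Brd9 was the gene lost in 4 of the others, while none was lost with extended spans. The number with an EPZ5676 peak was 12 with the control list held to the −log10 p floor of the EPZ5676 list, without overlapping genes and with extended spans, 10 with 500 bp covered, 3 with peaks of at least 1000 bp (Arid1a, Arid1b and Ep400; 2.41% of all genes) and 2 at a −log10 q of at least 2 (Arid1a and Ep400; 1.91% of all genes). The median share of the span covered in the control was 27.4% with peaks of at least 1000 bp, 28.7% at the −log10 q threshold, 21.6% at the −log10 p floor, 33.8% without overlapping genes and 29.1% with extended spans. The share of control-covered bases still covered was, in the same order, 0.917, 0.0871, 2.60, 2.28 and 2.09%, where all genes had 0.645, 0.162, 1.78, 1.83 and 1.66%. The median share after EPZ5676 was 0 in each. Fewer peaks enter under the width and q thresholds, by construction. The 500 bp setting gives no other value for covered shares. Of the 65 other genes, 48 (of 51) to 62 were marked in the control. No paired analysis was possible because each condition has 1 peak list, and no replicate could be left out. Without read depth, a gene with no EPZ5676 peak cannot be said to lack the mark.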

Other observations

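The 65 further genes include 12 SNF2-family ATPase genes, grouped after the values were seen, and their control coverage differed widely. Smarca1 had none. Hltf was covered over 909 bp of its 60684 bp span, Smarcal1 over 1770 bp (1.77% of its span), Zranb3 over 7101 bp (4.77%), Chd1l over 4671 bp (9.44%), Rad54l over 2842 bp (9.65%) and Shprh over 6719 bp (9.83%). Smarcad1 had 11858 bp (16.1%), Atrx 36290 bp (27.5%), Ercc6 22355 bp (33.0%), Btaf1 30756 bp of its 87979 bp span and Rad54l2, the gene of the androgen receptor partner ARIP4, 63726 bp (63.0%). Of the 12, 1 had EPZ5676 coverage, Rad54l2 with 3018 bp, where 12.3% of all protein-coding genes had some. Smarca1 and Atrx are X-linked, and no EPZ5676 peak was listed on that chromosome. The spans of Smarcal1, Chd1l and Rad54l overlap another gene. Yy1, a subunit of INO80 that also binds DNA on its own, had the highest covered share of the 65, 98.3% of its 27204 bp span, and no EPZ5676 peak in it.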
